A study of Mus musculus with 4 samples.

Results

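A set of 10 genes of the Wnt/β-catenin pathway was followed in mouse embryonic stem (ES) cells that carry the leukemic fusion Nup98-HoxA9: the target genes Sp5, Axin2, Nkd1, Lgr5, Ccnd1 and Notum and the Tcf/Lef transcription factor genes Lef1, Tcf7, Tcf7l1 and Tcf7l2. They were chosen by the processed signals of the arrays themselves, because Sp5 and Lef1 were lower in both Nup98-HoxA9 clones than in the parental line, so that difference is described here and not tested. All probes whose RefSeq transcript belongs to 1 of these genes were used, which gave 15 probes for the 10 genes, among 26721 probes for 20257 genes on the array.

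The 4 lines, with 1 one-colour array each, were parental EB3 cells, Nup98-HoxA9 clone #1, Nup98-HoxA9 clone #9 and the HoxA9-Ct clone. Nup98-HoxA9 joins the FG repeats of the nucleoporin Nup98 to the C-terminal part of HoxA9 that holds the homeodomain, and HoxA9-Ct is that C-terminal part alone. The 3 transgenic lines are clones picked after Tol2 transposon delivery and hygromycin B selection of FLAG-tagged constructs, whereas the parental line carries none of these constructs, and all share the EB3 background and were grown with LIF. Clonal origin, selection and the transgene cannot be told apart in a comparison with the parental line, and the HoxA9-Ct line, which shares the selection, is 1 clone. Both clones stand for Nup98-HoxA9, so a mean over them has n = 2, and every other line has no replicate.

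In the canonical Wnt pathway, a Wnt ligand binds a Frizzled receptor and an Lrp co-receptor, the complex of Axin, Apc and Gsk3 no longer marks β-catenin for degradation, and β-catenin enters the nucleus and binds Tcf/Lef proteins on DNA. Several targets feed back on the pathway: Axin2 belongs to the destruction complex, Nkd1 binds Dishevelled, and Notum removes the lipid that Wnt ligands need. In mouse ES cells, Wnt signalling favours self-renewal, and Tcf7l1 (also called Tcf3) acts mainly as a repressor of pluripotency genes.

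The processed signal of a spot is its fluorescence after removal of the local background and the spatial trend, and its error is the one that the extraction software models for that spot. To compare lines, each log2 signal was reduced by that of the array's 75th percentile, which lay between 209.1 and 253.0. Between 49.9% and 53.0% of spots were called well above background per array and none was saturated, and probes printed as 10 spots had a median spot-to-spot SD of 0.105 to 0.118 on the log2 scale. The label of the Nup98-HoxA9 lines was checked at Hoxa9, whose signal was 341 in clone #1 and 409 in clone #9, with lower bounds of 29.8-fold and 31.4-fold over the parental line. Hoxa9 was not well above background in the parental line or in the HoxA9-Ct line, so the array did not show the HoxA9-Ct transgene, and whether the probe reads the fusion, the endogenous gene or both was not tested. All 8 ES cell markers examined (Pou5f1, Sox2, Nanog, Zfp42, Klf4, Esrrb, Dppa5a and Tfcp2l1) were well above background in all 4 lines.

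Of the 10 genes, 8 were well above background in the parental line and 7 in all 4 lines. Of these 8, Sp5 and Lef1 (2 of 8) lay more than 2-fold below the parental line in both clones, where 1.23% of all genes above background in the parental line met the same rule; the choice of the genes used this contrast. At a log2 ratio of -1 or below, Ccnd1 in clone #9 (-1.14) lay just past this limit and Tcf7 in clone #9 (-0.99) just short of it, and neither gene passed it in clone #1. Axin2 and Lgr5 were not well above background in any line.

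**Figure D1:**
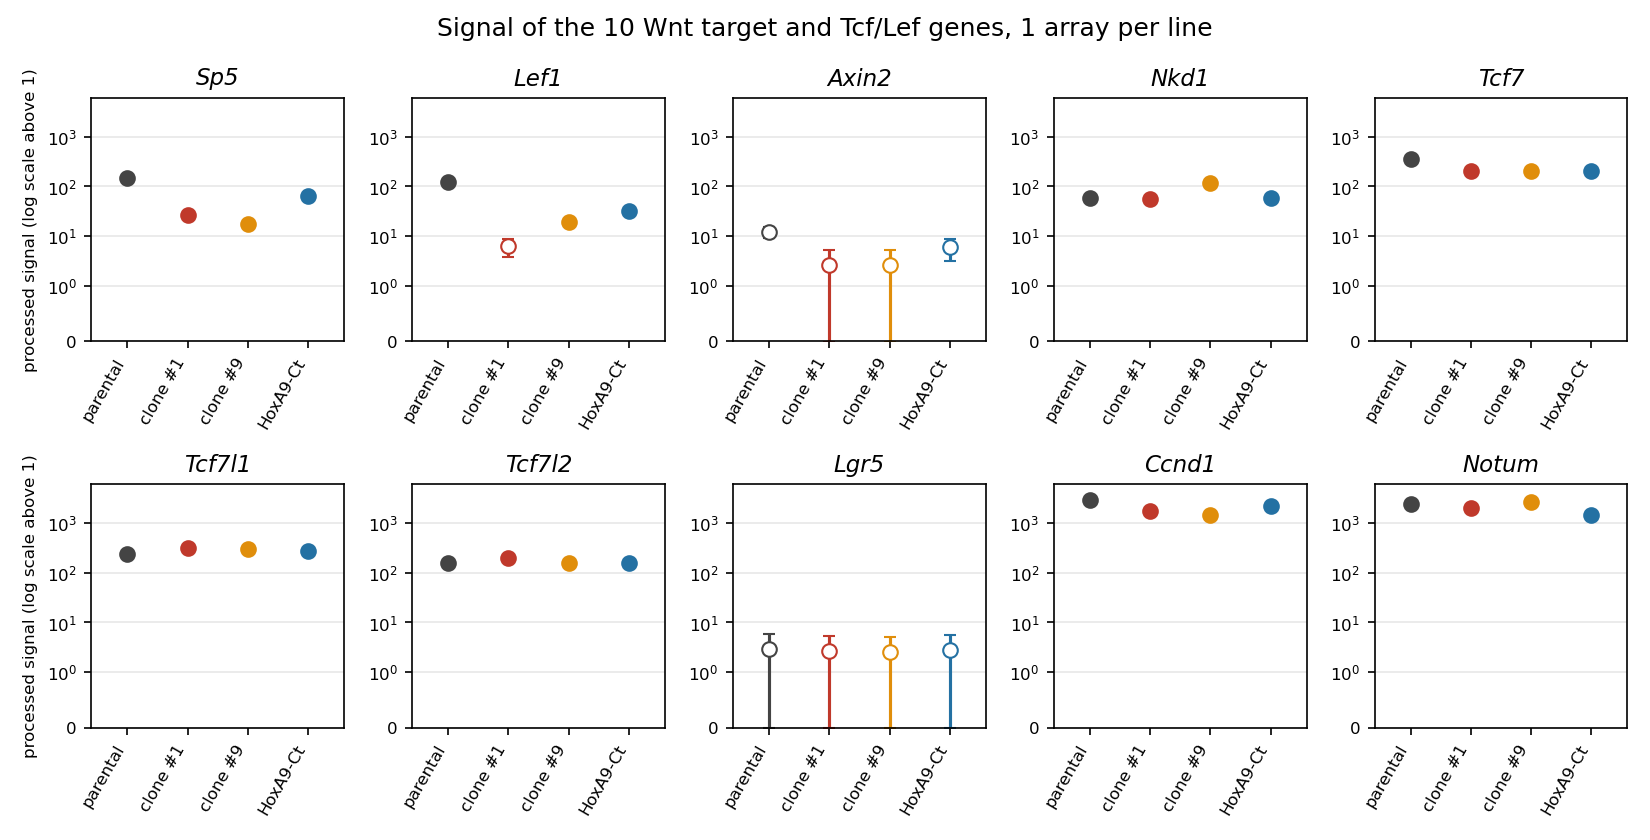
Processed signal (vertical axis, logarithmic above 1 and linear below) of the 10 genes at their brightest probe in the 4 lines, with 1 array per line; bars are the extraction software's error and open circles mark signals not well above background. Sp5 and Lef1 are highest in the parental line and lowest in the Nup98-HoxA9 clones, while Axin2 and Lgr5 are open in all 4 lines.

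Sp5 encodes a zinc-finger factor of the Sp family that is transcribed directly in response to β-catenin. Its signal was 145 ± 14.7 in the parental line, 27.1 ± 3.65 in clone #1, 17.4 ± 2.99 in clone #9 and 63.2 ± 6.85 in the HoxA9-Ct line (software error, 1 spot each). All 4 signals were well above background, the parental line was the highest, the HoxA9-Ct line came next, and the clones were lowest. Relative to the parental line, Sp5 was 5.18-fold lower in clone #1 and 9.19-fold lower in clone #9, a mean log2 ratio of -2.79 ± 0.59 (SD, n = 2 clones). The HoxA9-Ct line was 2.09-fold lower than the parental line. The clones lay 2.48-fold and 4.39-fold below the HoxA9-Ct line, by the same low clone signals that chose the gene. The gap between the clones at Sp5 was 0.83 on the log2 scale, and for genes with a parental signal under 200 the median gap was 0.28 and the 95th percentile 1.29. Among the 12553 genes above background in all 4 lines, 0.0159% had a lower mean log2 ratio in the clones than Sp5. The choice of Sp5 used this same ratio, so its rank is only a description. Genes that fell below background in a clone, such as Lef1, are not among the 12553.

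Lef1 encodes a Tcf/Lef factor that mostly activates targets together with β-catenin and is itself a target. Its signal was 123.5 ± 12.6 in the parental line, 6.27 ± 2.37 in clone #1, 19.2 ± 2.99 in clone #9 and 31.5 ± 4.0 in the HoxA9-Ct line. It was well above background in 3 of the 4 lines, the exception being clone #1. Lef1 was at least 11.6-fold lower in clone #1 than in the parental line, with the detection limit of the clone #1 array in place of its signal, and 7.11-fold lower in clone #9. The HoxA9-Ct line was 3.58-fold lower than the parental line and stood between the parental line and the clones. Clone #9 was 1.99-fold below the HoxA9-Ct line and clone #1 at least 3.24-fold below it. In bulk RNA, fewer cells with the transcript and less transcript per cell cannot be told apart.

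The HoxA9-Ct line and the clones were compared with the same parental array, so their ratios are not independent of each other. The HoxA9-Ct line was more than 2-fold below the parental line at 2 of the 8 genes, again Sp5 and Lef1, against 0.747% of all genes. Both clones were more than 2-fold below the HoxA9-Ct line at 1 of 8, Sp5, where 1.41% of all genes above background in the HoxA9-Ct line met that rule. Since the choice of the genes used the clone and parental signals, nothing is read from either count. Sp5 and Lef1 were each read from 1 spot per array. Of 24 probes with 1 spot that were more than 10-fold brighter in the parental line than in every other line, 79.2% came from the bottom rows of the array (the last eighth). Of all probes with 1 spot, 12.3% are printed there, and the Sp5 and Lef1 probes are printed elsewhere. Both genes were less than 10-fold brighter in the parental line than in the HoxA9-Ct line, so this count does not cover them. An effect of a single spot at these 2 genes was not tested.

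The sequences before the transcription starts of Sp5 and Lef1, the genes with the lowest ratios, are shown to 250 bases, from RefSeq on GRCm38.p6 and on the plus strand. They were searched on both strands for the Tcf/Lef letters CTTTGAT and for its variants with other last letters, which are CTTTGAA as well as the forms CTTTGTT together with CTTTGTA, and matches are in capitals.
Sp5, chr2:70474673-70474922: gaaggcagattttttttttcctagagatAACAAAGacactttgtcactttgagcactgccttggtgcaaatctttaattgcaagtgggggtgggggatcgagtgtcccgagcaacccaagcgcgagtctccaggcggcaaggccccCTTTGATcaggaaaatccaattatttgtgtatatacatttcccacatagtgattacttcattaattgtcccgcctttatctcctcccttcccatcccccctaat
Lef1, chr3:131110047-131110296: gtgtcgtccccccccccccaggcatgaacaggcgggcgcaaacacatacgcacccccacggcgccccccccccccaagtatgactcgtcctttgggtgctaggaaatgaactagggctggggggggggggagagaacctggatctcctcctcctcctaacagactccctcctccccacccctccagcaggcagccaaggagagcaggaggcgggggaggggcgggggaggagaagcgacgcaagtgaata

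The Sp5 window held CTTTGAT from position -104 and AACAAAG, which is CTTTGTT on the opposite strand, from position -222, counted from the transcription start. The Lef1 window shown held none of the 4, and another annotated Lef1 start had TACAAAG, the opposite strand of CTTTGTA, at -147. RefSeq windows (300 bases, 50 of them after the start) were found for 7 of the 10 genes, 12 windows in all, and 3 of the 12 held at least 1 of the letters: 1 each of Sp5, Lef1 and Tcf7l2. Over all 32851 windows, 16.9% held at least 1 of the 4, and 3.73% held CTTTGAT. These matches are a description of the letters, and binding was not measured here.

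Tcf7 encodes the factor TCF1, which with Lef1 activates targets. The signal of Tcf7 was 362 ± 36.3 in the parental line, 203.0 ± 20.4 in clone #1, 200.8 ± 20.2 in clone #9 and 204 ± 20.5 in the HoxA9-Ct line. Before scaling, the processed signals of the 3 transgenic lines were within their errors of each other. After scaling, clone #1 and clone #9 lay 1.07-fold and 1.23-fold below the HoxA9-Ct line. All 3 lines were below the parental line, by log2 ratios of -0.79, -0.99 and -0.70. At the other Tcf7 probe, which is printed in these bottom rows, the ratios were -0.83, -0.91 and -0.33. Of the genes above background in all 4 lines, 1.90% had a lower mean ratio in the clones and 1.16% a lower ratio in the HoxA9-Ct line than Tcf7.

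Tcf7l1 was not lower. Its signal was 239 ± 24.0 in the parental line, 318 ± 31.9 in clone #1, 299 ± 29.9 in clone #9 and 278 ± 27.9 in the HoxA9-Ct line. The log2 ratios of 0.46, 0.18 and 0.35 put all transgenic lines slightly above the parental line, and the clones did not stand apart from the HoxA9-Ct line (mean difference -0.03). Tcf7l2, an activating or repressing factor by context, gave different ratios at its probes, which were designed on different transcripts. The brightest probe had 157 ± 15.9, 198 ± 19.9, 155 ± 15.6 and 154 ± 15.6 in the parental line, clone #1, clone #9 and the HoxA9-Ct line, with log2 ratios of 0.38, -0.16 and 0.10. The next had 91.1 ± 9.57, 140.5 ± 14.3, 164 ± 16.6 and 109 ± 11.3, with ratios of 0.67, 0.71 and 0.40, so the direction in clone #9 depended on the probe. At the third, no line was well above background. Of the 4 Tcf/Lef genes, Lef1 and Tcf7 were thus lower in both clones, Tcf7l1 was not, and Tcf7l2 had no single direction.

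Ccnd1 encodes cyclin D1, which drives entry into S phase and responds to many pathways besides Wnt. The signal of Ccnd1 was 2873 ± 287 in the parental line, 1739 ± 174 in clone #1, 1434 ± 143 in clone #9 and 2147 ± 215 in the HoxA9-Ct line. The clones were the lowest lines, 1.60-fold and 2.21-fold below the parental line, at a mean log2 ratio of -0.91 ± 0.33 (SD, n = 2 clones). The HoxA9-Ct line was 1.22-fold below the parental line. Of the genes above background in all lines, 1.77% had a lower mean ratio in the clones than Ccnd1.

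The feedback gene Nkd1 differed between the clones. Its signal was 59.3 ± 6.64 in the parental line, 57.1 ± 6.33 in clone #1, 120.1 ± 12.3 in clone #9 and 57.8 ± 6.44 in the HoxA9-Ct line. Only clone #9 stood apart, 1.83-fold above the parental line, and at the other Nkd1 probe clone #9 was again the one line well above background (16.2 ± 3.0, at least 1.24-fold above the parental line). Notum had 2443 ± 244 in the parental line, 2043 ± 204 in clone #1, 2632 ± 263 in clone #9 and 1445 ± 145 in the HoxA9-Ct line. The clones stayed near the parental line at log2 ratios of -0.21 and -0.04 and the HoxA9-Ct line was the lowest line at -0.63. The sign of the Notum difference therefore turned with the control: the mean of the clones was 0.12 below the parental line on the log2 scale, a ratio of -0.12, and 0.50 above the HoxA9-Ct line.

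Axin2, the feedback target most often used as a readout of the pathway, could not be measured. The signals of its brighter probe were 12.3 ± 3.16, 2.66 ± 2.68, 2.59 ± 2.60 and 6.11 ± 2.86 in the parental line, clone #1, clone #9 and the HoxA9-Ct line, and those of the other 8.83, 2.50, 2.52 and 5.53. No signal was well above background, so neither a fold nor an order of the lines is given. Lgr5, the R-spondin receptor of intestinal stem cells, had signals of 2.59 to 2.93, each no larger than its error.

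**Figure D2:**
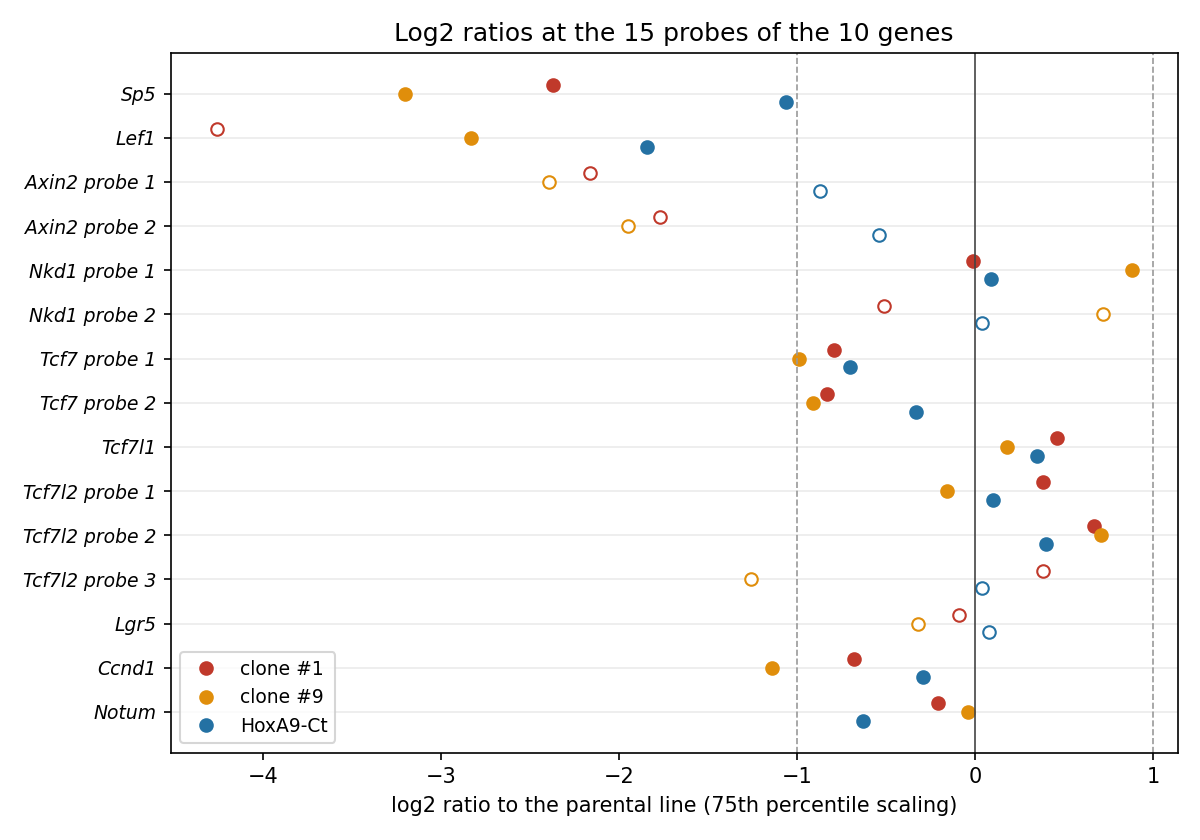
Log2 ratio to the parental line (horizontal axis) at each of the 15 probes in clone #1, clone #9 and the HoxA9-Ct line, numbered by brightness where a gene has several; open circles mark ratios in which either line was not well above background, and dashed lines mark a 2-fold difference. The Sp5 and Lef1 points of all 3 transgenic lines lie left of the lower dashed line, and the probes of Nkd1 and Tcf7l2 spread between lines.

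The median log2 ratio over all 10 genes was -0.55 for the mean of the clones and -0.46 for the HoxA9-Ct line. Over the 12553 genes above background in all lines it was -0.04 and -0.00. These sets were filtered differently, because the 10 include Axin2 and Lgr5, below background in all lines, and Lef1, below background in clone #1. Of the 10, 7 were above background in all lines. Their middle ratio was that of Notum in the clones (-0.12) and of Ccnd1 in the HoxA9-Ct line (-0.29). With signals below the detection limit set to it, the medians of the 10 genes were -0.27 and -0.15. The 10 genes thus did not move as 1 group. At the brightest probe, Sp5, Lef1, Tcf7 and Ccnd1 were lower than the parental line in all 3 transgenic lines. Notum was too, by little in the clones (-0.21 and -0.04), and Axin2 could not be measured. Tcf7l1 was higher in all 3.

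**Figure D3:**
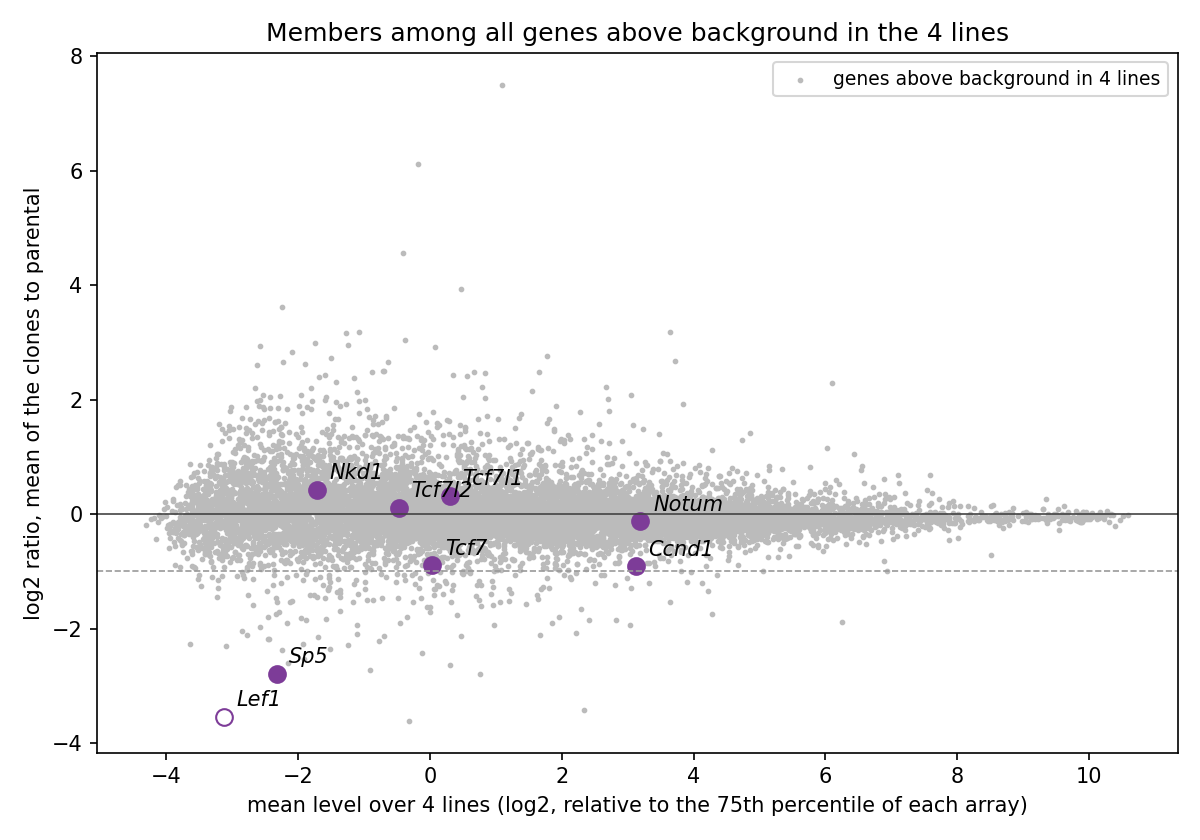
Mean log2 ratio of the Nup98-HoxA9 clones to the parental line (vertical axis) against the mean log2 level over the 4 lines relative to the 75th percentile (horizontal axis), for 12553 genes above background in all lines (grey) and the members above background in at least 1 line (purple; Lef1 is open because clone #1 was not well above background). Sp5 and Lef1 lie at the lower edge of the grey cloud, and Tcf7 and Ccnd1 lie just above the dashed line of a 2-fold decrease.

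The rest of the pathway was read from 7 lists of genes outside the 10. Of 97 listed genes, 96 were measured, 63 were well above background in all 4 lines and 22 in none. More than 2-fold lower in both clones were 2 of the 65 above background in the parental line (Wnt5a and Sfrp4), and more than 2-fold higher were 3 (Dkk1, Tle2 and Cdx1), where 1.23% of all genes were lower and 1.66% higher by the same rule. Over these 63 genes, the log2 ratios had a median of -0.02 in the clones and 0.02 in the HoxA9-Ct line.

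Limma, fitted over all 55562 probes with an adjusted p of 0.05, called, at the brightest probe of a gene, 3 of the 96 higher (Fzd6, Dkk1 and Cdx2) and 1 lower (Wnt5a) in Nup98-HoxA9 ES than in the parental line, where 0.781% of all probes were called higher and 0.625% lower. Between the HoxA9-Ct line and the parental line limma called 0 of the 96, with 4 at an unadjusted p under 0.05, and 0.216% of all probes higher and 0.189% lower. Between Nup98-HoxA9 ES and the HoxA9-Ct line it called 1 higher (Dkk1) and 0 lower, with 5 at an unadjusted p under 0.05, against 0.673% and 0.688% of all probes. Its spread came from the clones alone (1 residual degree of freedom) and was 1 SD shared by all probes, whatever the gap between the clones at a gene. The 4 calls against the parental line and the 1 against the HoxA9-Ct line fell to 0 with quantile normalization. They also fell to 0 with probes above background on at least 1 array and with the authors' series matrix. The 4 fell to 0 as well with the parental and HoxA9-Ct lines as 1 group. With normexp background correction none of these genes was called in the same comparison.

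Among the ligands, 6 of 18 were above background in all lines and 9 in none, and Wnt3 and Wnt3a, the ligands of the primitive streak, were in none. Wnt5a, a ligand best known for β-catenin-independent signalling, was also lowest in the transgenic lines. Its signal was 55.2 ± 6.0 in the parental line, 11.1 ± 2.35 in clone #1, 12.7 ± 2.43 in clone #9 and 14.6 ± 2.67 in the HoxA9-Ct line. The log2 ratios were -2.27, -2.27 and -1.78, so the HoxA9-Ct line lay nearer to the clones than at Sp5: both clones were 1.40-fold below it (limma, adjusted p = 0.00574 for the clones and 0.462 for the HoxA9-Ct line).

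Among the receptors, 10 of 14 were above background in all lines, and over these 10 the lowest and highest mean ratios of the clones were -0.84 and 0.65. Fzd6 was well above background in clone #9 alone (23.0 ± 3.52, at least 1.76-fold above the parental line). Limma (adjusted p = 0.00137) used the signals of the parental line (3.01 ± 3.03) and clone #1 (13.2 ± 3.06), both below background, as they stood. Of the secreted regulators, 9 of 18 were above background in all lines. Dkk1, an inhibitor that binds the Lrp co-receptors and is itself a target, had 14.4 ± 3.18 in the parental line, 39.7 ± 4.69 in clone #1, 86.5 ± 8.99 in clone #9 and 6.16 ± 2.69 in the HoxA9-Ct line, the last not above background. Both clones were above the parental line, 2.83-fold and 5.43-fold (limma, adjusted p = 0.0319), and at least 3.36-fold and 6.43-fold above the HoxA9-Ct line (limma, adjusted p = 1.4e-05). For that last p-value the HoxA9-Ct signal of 6.16, below background, was used as it stood and not as a bound. Sfrp4, which binds Wnt ligands, had 395 ± 39.6, 180 ± 18.1, 162 ± 16.3 and 344 ± 34.5 in the same order, lower in the clones at -1.09 and -1.43 but not called by limma (adjusted p = 0.516).

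The destruction complex and its partners covered a narrow range: all 15 genes were above background in all lines, with mean log2 ratios of the clones between -0.40 and 0.16 and ratios of the HoxA9-Ct line between -0.26 and 0.35. Ctnnb1, the β-catenin gene, had signals of 4205 ± 421, 4190 ± 419, 4110 ± 411 and 3684 ± 368, all within a log2 ratio of 0.18 of the parental line in size (0.04, -0.18 and -0.06). Axin1 had log2 ratios of -0.25, -0.34 and -0.07. The arrays measure RNA, so the stability of the β-catenin protein was not examined.

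Of 10 nuclear cofactors, 9 were above background in all lines, and Tle2, a Groucho corepressor, had 16.9, 34.9, 88.5 and 26.6 (log2 ratios 1.09, 2.24 and 0.78; limma, adjusted p = 0.135 for the clones), at a probe printed in the bottom rows. Among 16 other β-catenin targets and feedback genes, the caudal homeobox genes Cdx1 and Cdx2 were higher in the clones. Cdx1 had 449 ± 45.0, 933 ± 93.4, 2124 ± 212 and 409 ± 41.0, which gave log2 ratios of 1.1, 2.1 and -0.00 (limma, adjusted p = 0.174 for the clones). Cdx2 was above background in the clones alone, at 16.8 ± 2.79 and 29.5 ± 3.72, with lower bounds of 1.47-fold and 2.26-fold over the parental line. The HoxA9-Ct line had 11.8 ± 2.68, below background. The clones were at least 1.34-fold and 2.07-fold above it, a difference that limma did not call. Against the parental line, limma (adjusted p = 1e-05) used the parental signal of 2.55 ± 2.57, which was below background, as it stood. T, the brachyury gene, was above background in no line, Rnf43 in clone #9 alone, and Znrf3, which like Rnf43 removes Frizzled receptors, had log2 ratios of 0.24, 0.07 and 0.29. Sp5 and Lef1 were thus low in the same clones in which limma called the targets Dkk1 and Cdx2 higher than in the parental line. Against the HoxA9-Ct line it called Dkk1 and not Cdx2. The calls of Dkk1 and Cdx2 against the parental line were lost with quantile normalization, with probes above background on at least 1 array and with the series matrix. They were also lost with normexp and with the parental and HoxA9-Ct lines as 1 group. Of the 16 other targets and feedback genes, the 9 above background in all lines had a median log2 ratio of 0.16 in the clones.

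The 5 pluripotency genes that Tcf7l1 is known to hold down in ES cells (Esrrb, Klf2, Tfcp2l1, Nr5a2 and Nanog) were above background in all lines, with mean log2 ratios of the clones between -0.76 and 0.27. Nanog had signals of 75.1 ± 7.90, 83.6 ± 8.64, 62.9 ± 6.66 and 59.8 ± 6.42, and log2 ratios of 0.20, -0.40 and -0.20. Limma called 0 of the 5 in any comparison, and with trend and robust on it called Nr5a2 lower in the clones than in the parental line.

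**Figure D4:**
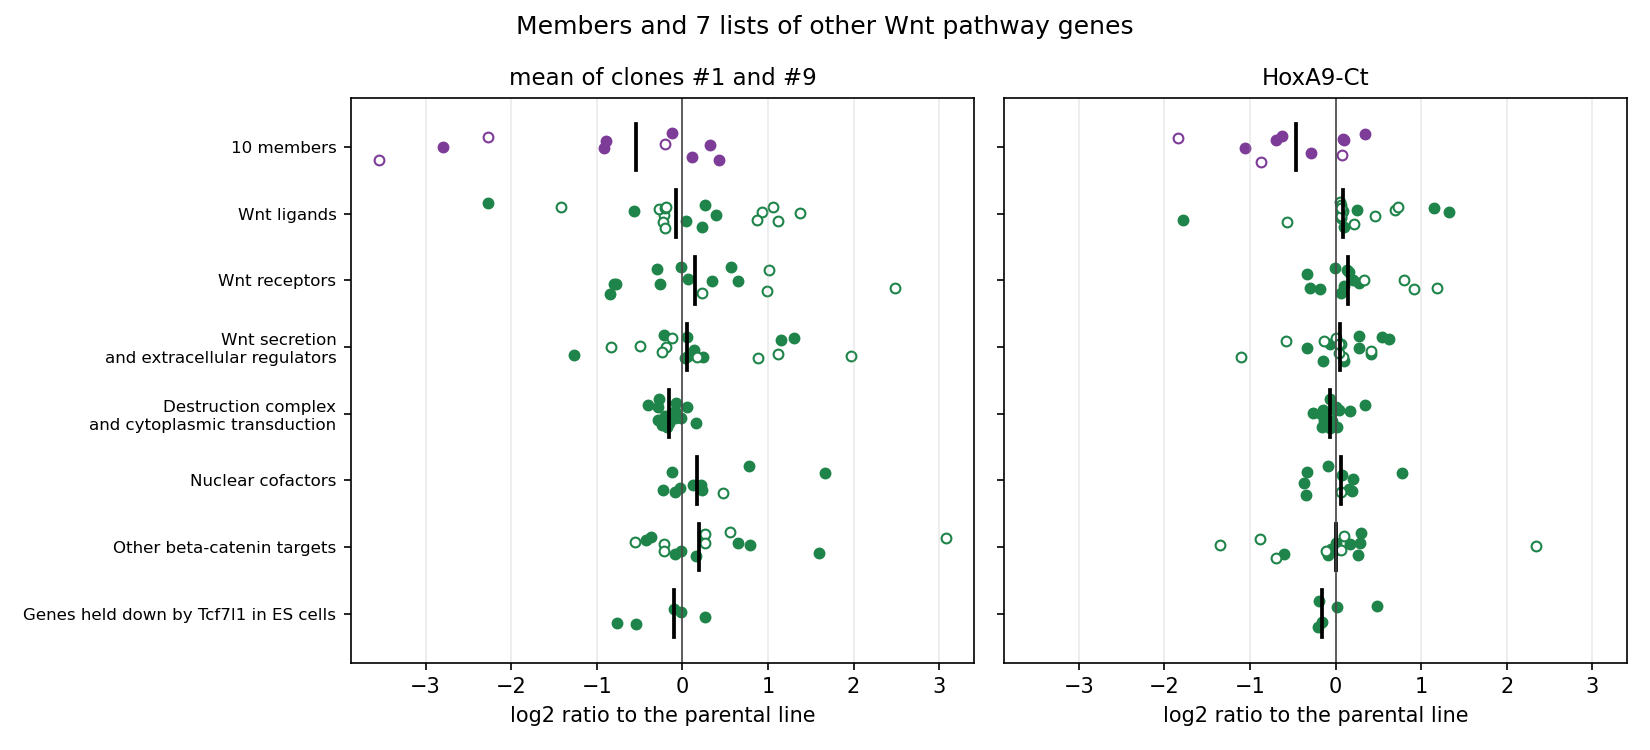
Log2 ratio to the parental line (horizontal axis) of the 10 genes (purple) and of 96 other Wnt pathway genes in 7 lists (green), for the mean of the Nup98-HoxA9 clones (left) and the HoxA9-Ct line (right); open circles were not well above background in all 4 lines, and black bars are medians over all genes of a row, open circles included. The destruction complex genes lie close to 0 in both panels, while Lef1 and Sp5 lie furthest left in the left panel.

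By the root mean square difference of the log2 ratios to the parental line in the other 3 lines, the genes nearest to Sp5 among 12552 were Grhl2, an epithelial transcription factor (difference 0.10), Pdgfc, a growth factor of the PDGF family (0.31), and Dpys, an enzyme of pyrimidine breakdown (0.39). Grhl2 had ratios of -2.43, -3.14 and -0.92 in clone #1, clone #9 and the HoxA9-Ct line. Those nearest to Lef1 among 12553, with its signal below background used for clone #1, were Pdgfc (1.00), Wt1, a zinc-finger factor of kidney and gonad (1.06), and Trim36, a ubiquitin ligase (1.18). None was as near to Lef1 as the 3 above were to Sp5. Only genes above background in all lines were searched, so genes that, like Lef1, were below background in clone #1 could not be found. The likeness is over 3 ratios that share 1 parental array.

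Markers of other cell states also moved with the lines. The 4 primed epiblast markers (Fgf5, Otx2, Pou3f1 and Dnmt3b) had median log2 ratios of -1.1 in clone #1, -1.09 in clone #9 and -0.04 in the HoxA9-Ct line, with 4 of 4 above background in the parental line and 3 of 4 in each other line. The 4 primitive endoderm markers (Gata6, Gata4, Sox17 and Dab2) summed to a signal of 168 in the parental line, 618 in clone #1, 872 in clone #9 and 48.6 in the HoxA9-Ct line, above background at 4, 4, 4 and 2 of the 4. The 4 trophectoderm markers, which include Cdx2, summed to 34.3, 74.0, 199 and 29.9, above background at 1, 3, 3 and 0. Of 5 primitive streak markers, T and Mixl1 were above background in no line, and the list had median ratios of -0.14, -0.34 and 0.01. The neural list (Sox1, Pax6 and Nes) had 0.47, 0.13 and 0.12, with 3, 2, 2 and 3 genes above background in the parental line, clone #1, clone #9 and the HoxA9-Ct line. Pax6 was above background in the parental and HoxA9-Ct lines (19.4 and 19.1) and in neither clone, while Sox1 and Nes were not lower in the clones. The fibroblast list had 0.07, 1.55 and 0.26. The part of these states in the ratios of Sp5 and Lef1 was not tested.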

How the data were processed

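The authors hybridized Cy3-labelled cRNA of the 4 lines to SurePrint G3 Mouse GE 8×60K arrays, on 1 slide with 1 scan, and extracted spot intensities with Feature Extraction 10.10.1.1 (per the file headers), which subtracts background and detrends. The deposited series matrix holds the same intensity values times 1 constant per array, 3.19 to 3.63, chosen in a way not given in the sources used here (column medians 46.3 to 51.8). From there, control and outlier spots were left out, and log2 signals were scaled to the 75th percentile. Probes were named from RefSeq accessions, and a gene was read at its brightest probe. Folds against a line below background use the array's lowest signal well above background, or the probe's own if higher, and are lower bounds. Limma 3.58.1 in R 4.3.3 compared the 3 groups (prior SD 0.454, Benjamini-Hochberg), and was tested on simulated data. Python 3.11.15 and pandas 2.3.3 did the rest. Replicates within a line were not analysed here, so p-values rest on the gap between 2 clones, pooled over all probes into that prior SD (prior degrees of freedom infinite), and not on the spread of each probe. The members, lists and tests were chosen with earlier results of these data known. Genes named were all members, pathway genes called by limma or more than 2-fold changed in both clones, fixed landmarks, and the 3 genes most like Sp5 and Lef1. Alternatives were normexp (offset 50, on median signals), quantile, median and floor settings, the series matrix, all probes of a gene, other references, trend and robust fits, and leaving out each clone. The Wnt7a probe had an outlier spot and gave no value.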

Additional observations from a re-analysis of the deposited data

How the results depend on the processing

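Of 160 recomputed log2 ratios of single members, 139 moved by less than the spread between the clones and 15 by more in the same direction, and 6 changed sign. Ratios without 1 of the clones cannot move by more than that spread, so they could only fall among the 139 or the 6. The 6 were Lgr5 in the HoxA9-Ct line with normexp (-0.05), Tcf7l2 without clone #1 (-0.16, and 0.38 without clone #9), Nkd1 without clone #9 (-0.01, and 0.88 without clone #1), Tcf7l1 against the HoxA9-Ct line (-0.03), and Notum against the HoxA9-Ct line (0.50) or the mean of both controls (0.19). Sp5 kept its direction in every setting run (-3.20 to -1.35 in the clones, -1.13 to -0.66 in the HoxA9-Ct line), as did Lef1 (-4.26 to -1.47 and -1.90 to -0.94), with the smallest sizes under normexp, whose offset of 50 exceeds their signals in the clones. The count of members more than 2-fold lower in both clones was 2, and 1 against the HoxA9-Ct line; leaving out either clone gave 2 to 3. The median of the members in the clones (-0.55) was -0.21 with normexp, -0.27 with the floor, -0.24 against the HoxA9-Ct line, -0.39 against the mean of both controls and -0.66 to -0.45 without either clone; in the HoxA9-Ct line (-0.46) it was -0.17 with normexp and -0.15 with the floor. Pathway genes called against the parental line were 4, and 0 with quantile normalization, detected probes, the series matrix or pooled controls, and 9, Nr5a2 among them, with trend and robust on. Against the HoxA9-Ct line, the 1 call (Dkk1) became 4 with trend and robust on, Dkk1 among them. It became 0 with quantile normalization, detected probes or the series matrix. With normexp 3 other genes were called against the HoxA9-Ct line (Cdx1 higher, Wnt6 and Sfrp4 lower) and Dkk1 was not. With normexp the 3 genes called against the parental line were Sfrp5, Cdx1 and Sfrp4. Over all probes, calls against the parental line (434 higher and 347 lower) were 0 with quantile normalization (5104 at an unadjusted p under 0.05) and detected probes (2224), 60 and 80 with the series matrix, 617 and 626 with trend and robust on, and 9 and 0 with pooled controls. Limma could not be fitted without either clone, which leaves no residual degree of freedom. No paired analysis was possible because the groups compared share fewer than 2 replicate numbers. The number of arrays, 1 per line, and signals near background limit the precision.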

Other observations

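Some ligands were higher in the HoxA9-Ct line, and are named here after their values were seen. Wnt6 had a signal of 124 ± 12.6 in the parental line, 117 ± 11.9 in clone #1, 199 ± 20.1 in clone #9 and 282 ± 28.3 in the HoxA9-Ct line, and Wnt10a had 33.6 ± 4.24, 31.4 ± 3.86, 52.9 ± 5.76 and 68.1 ± 7.23. Both were well above background in all lines, and the HoxA9-Ct line was 2.50-fold above the parental line at Wnt6 and 2.22-fold at Wnt10a. Limma called neither (adjusted p = 1.00 for both). At Wnt1, the brightest probe had 185 ± 18.7, 202 ± 20.4, 190.2 ± 19.2 and 176 ± 17.9 in the same order, while its other probe, printed in the bottom rows of the array, was well above background in the HoxA9-Ct line alone (18.3 ± 3.36, at least 1.70-fold over the parental line). Limma called that other probe higher in the HoxA9-Ct line than in the parental line (adjusted p = 0.00544) and than in the clones (adjusted p = 2.33e-05), and did not call the brightest one (adjusted p = 1.00 in both). Both calls used signals below background as they stood, 2.88 ± 2.89 in the parental line and 2.61 ± 2.62 and 2.55 ± 2.56 in the clones.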
